A study of Mus musculus with 8 samples.

Results

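The Zfp genes are mouse genes named for zinc finger proteins, and those described here are the 199 genes whose name is Zfp followed by a number and whose mean level over the study reached 2 FPKM. FPKM counts sequenced fragments relative to transcript length and library depth, so levels can be compared between genes per length. The members were chosen by name and by that measured mean level, and Zfp36 and Zfp42 were left out by the rule. They are 199 of 23284 genes in the deposited table and of 340 genes named in this way. The members just inside the limit were Zfp941 at 2.05 FPKM, Zfp59 at 2.05 FPKM and Zfp949 at 2.08 FPKM. Just outside it lay Zfp120 at 1.95 FPKM, Zfp677 at 1.94 FPKM and Zfp760 at 1.92 FPKM.

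RNA came from P19 cells, an established mouse embryonal carcinoma line. One arm received a control siRNA and the other an siRNA against Upf3a, which encodes a factor of nonsense-mediated mRNA decay. Transcription was blocked with actinomycin D 24 h after transfection in both arms, and RNA was taken at 0, 15, 105 and 225 min. The 2 arms and 4 times make 8 conditions with 1 deposited value per gene each, although the labels list 2 cultures per condition. Below, n counts genes except where time points are named, and each p-value measures only the spread between time points. Whether the arms' time points came from separate transfections is not stated. siRNA lowers an mRNA without removing the gene, and a single cell line was used.

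Most Zfp proteins bind DNA through C2H2 zinc fingers, short folds in which a pair of cysteines and a pair of histidines hold a zinc ion. Neighbouring fingers are joined by a conserved linker and can read the DNA in series, so the number of fingers limits how long a sequence a protein can read. Many also carry a KRAB domain, which recruits the corepressor TRIM28 and, through it, enzymes that deposit repressive chromatin marks. Such proteins silence retroelements and protect imprinted loci in early embryonic cells. The numbered Zfp name also covers proteins of other kinds, such as ribosome assembly factors and ubiquitin ligases.

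The repeated unit can be seen in the coding sequence of single fingers. The 5 below were taken from 3 of the mRNAs that fell fastest after the drug and from 2 that rose, to show the unit shared by members with opposite decay. Each sequence is the coding strand 5′ to 3′, read from GENCODE vM21 transcripts (GRCm38, the same assembly as mm10), lies in a coding exon, and has the linker to the next finger in capitals.
Zfp296 (falling; chr7:19579861-19579938, plus strand): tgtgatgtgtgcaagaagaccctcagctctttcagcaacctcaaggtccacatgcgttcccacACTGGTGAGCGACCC
Zfp87 (falling; chr13:67517934-67518011, minus strand): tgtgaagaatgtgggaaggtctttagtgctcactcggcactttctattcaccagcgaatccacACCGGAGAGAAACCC
Zfp105 (falling; chr9:122929926-122930003, plus strand): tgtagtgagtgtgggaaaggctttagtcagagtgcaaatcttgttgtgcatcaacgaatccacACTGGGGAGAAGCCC
Zfp771 (rising; chr7:127253856-127253933, plus strand): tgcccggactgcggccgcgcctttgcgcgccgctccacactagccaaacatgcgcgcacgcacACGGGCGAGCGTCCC
Zfp692 (rising; chr11:58313983-58314060, plus strand): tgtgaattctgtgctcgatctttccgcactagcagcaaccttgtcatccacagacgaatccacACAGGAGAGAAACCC
All 5 are 78 bases long, 15 of them the linker. The search pattern fixed this length and the linker, and genes without a match were passed over. Identity between pairs ran from 44.9% of bases (Zfp296 and Zfp771) to 66.7% (Zfp87 and Zfp105). Of the 198 members with a coding transcript, 193 had at least 1 C2H2 finger by sequence pattern, with a median of 9 fingers and a highest count of 36. The 5 without any included Zfp185, a LIM-domain protein, Zfp330, a nucleolar protein, and Zfp703. The conserved linker occurred in 138 of the 198.

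The arms carried their labels. Upf3a was at 13.6, 14.0, 14.0 and 15.0 FPKM with control siRNA and 5.27, 4.52, 4.76 and 4.16 FPKM with Upf3a siRNA (0, 15, 105 and 225 min), with no overlap. Markers of embryonal carcinoma cells were present, from Sall4 at a mean of 37.5 FPKM and Sox2 at 42.8 FPKM to Pou5f1 at 2014 FPKM. Of these 8 markers 7 were higher in the knockdown arm by limma with adjustment and Sox2 did not pass, with arm differences of 1.11 for Tdgf1, 0.99 for Utf1, 0.65 for Dnmt3b, 0.64 for Nanog and 0.43 for Lin28a. Their summed level ran from 2075 to 3438 FPKM over the control times and from 2550 to 4275 FPKM over the knockdown times. Neural markers were present too and 2 of 3 tested were lower in the knockdown arm: Elavl3 at -0.80 (9.21 and 4.85 FPKM) and Tubb3 at -0.19, with a summed level of 55.3 to 77.2 and 47.0 to 63.2 FPKM. Of 4 fibroblast and smooth muscle genes tested, Col1a2 was lower (-0.54) and none higher, with sums of 14.1 to 24.4 and 12.6 to 21.9 FPKM. Blood markers summed to 2.33 to 2.55 and 1.55 to 3.72 FPKM, and Hbb-b1 was listed at 0. The calls of Pou5f1, Sall4 and Tubb3 were lost when single times were left out, that of Pou5f1 also under median-of-ratios scaling and that of Tubb3 also when scaled to ribosomal protein genes, while Sox2 passed without 225 min. FPKM totals ran from 537350 to 923333 per condition, and depth is unknown. In a bulk sample, fewer cells holding an mRNA and less of it per cell cannot be told apart.

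Zfp mRNAs were of low abundance. The members' median level was 5.35 FPKM, where that of the 11452 genes tested (mean of 1 FPKM or more) was 10.9 FPKM. Zfp207, a kinetochore protein that carries Bub3 to chromosomes, stood highest at 137, 122, 128 and 117 FPKM with control siRNA and 148, 132, 132 and 137 FPKM with Upf3a siRNA. Next came Zfp106, an RNA-binding protein, at a mean of 58.1 FPKM, and Zfp598, a ubiquitin ligase that marks collided ribosomes, at 41.7 FPKM. All members had an estimate above 0 in all 8 conditions. Members lay on 20 chromosomes, 43 of them on chromosome 7 and 23 on chromosome 17. For 104, the gap to the nearest other gene named Zfp and a number, at any level, was below 200 kb.

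After transcription was blocked, the mRNAs of most Zfp genes were lost faster than the bulk of mRNA. In the control arm the median member had 97.3% of its starting FPKM at 15 min, 56.8% at 105 min and 39.0% at 225 min. In the knockdown arm these shares were 94.2%, 53.7% and 35.4%. The median over all genes tested stood at 102% and 105% at 225 min in the 2 arms. FPKM has no outside standard here, so each slope is relative to bulk mRNA and a loss of total mRNA is not seen. Together the members made up 0.353% of all FPKM at 0 min and 0.139% at 225 min in the control arm, and 0.398% and 0.134% in the knockdown arm. Part of this fall in share lies in the FPKM total, which rose from 562848 to 880304 (control) and from 537437 to 923333 (knockdown). The members' summed FPKM went from 1986 to 1221 and from 2136 to 1234.

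**Figure D1:**
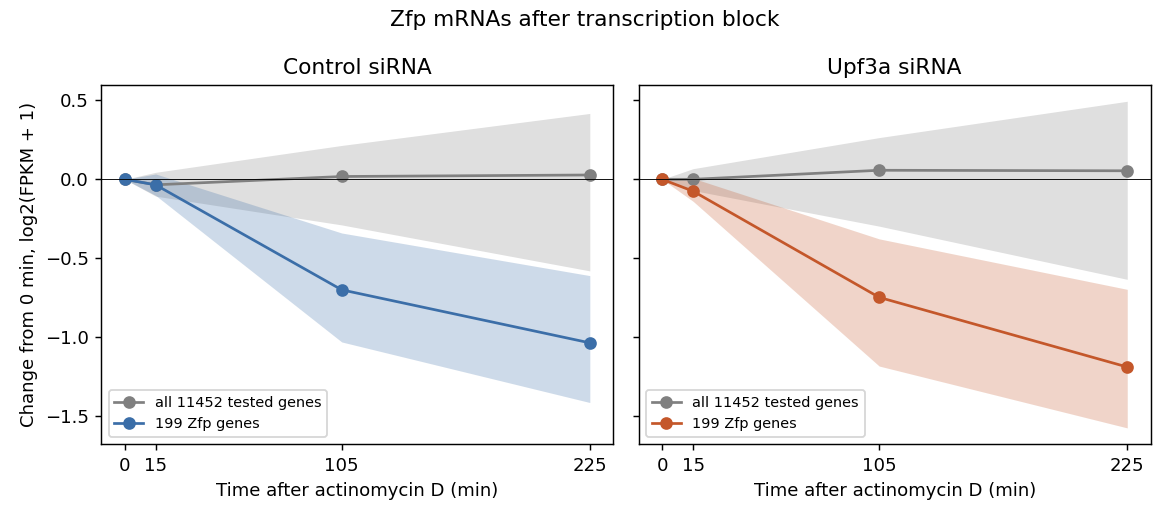
Change of log2(FPKM + 1) from 0 min against time after actinomycin D in min, for the control arm (left) and the Upf3a siRNA arm (right). Lines join medians over genes and bands span the middle 50% of genes (a spread over genes, not an error). The Zfp median reached -1.04 in the control arm and -1.19 in the knockdown arm at 225 min, while the median of all 11452 tested genes lay at 0.03 and 0.05.

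The decay slope was the change of log2(FPKM + 1) per hour over both arms, tested with limma and Benjamini-Hochberg adjustment over all genes at an adjusted p below 0.05. Of the 199 members, 171 fell (85.9%), 15 rose (7.54%) and 13 did not pass. Among all genes tested, 38.6% fell and 42.7% rose by the same rule. The members' median slope was -0.30, with the middle 50% of them between -0.42 and -0.18, where the median of all genes was 0.01. The values ran from -0.65 to 0.25 across members. For members that fell the median relative half-life, 1 divided by the negative slope, was 2.99 h, but over the alternatives it ran from 1.94 h (scaled to ribosomal protein genes) to 5.58 h (pseudocount of 5). The shortest was 1.54 h, or 0.822 h without 225 min and 2.28 h with a pseudocount of 5. With a pseudocount of 0.1 the median was 2.39 h, and the shortest value was also below that of the main fit. The added 1 flattens the slopes of low mRNAs, so the half-lives of members that end near or below 1 FPKM are overstated. The median slope was -0.19 after quantile normalization and -0.16 with a pseudocount of 5. Scaled to 75 ribosomal protein genes it was -0.51, with the median of all genes at -0.23.

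**Figure D2:**
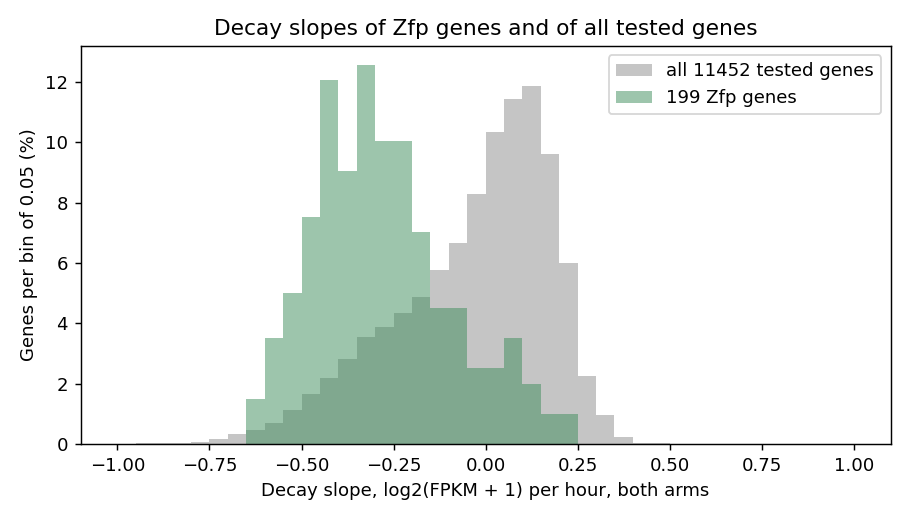
Distribution of decay slopes in log2(FPKM + 1) units per hour, as the percent of genes in each bin of 0.05, for 199 Zfp genes and all 11452 tested genes. The Zfp genes centre on a median of -0.30 and extend from -0.65 to 0.25, while the tested genes centre on 0.01.

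The authors' own confidence limits, whose level is not stated, gave a second reading of the same values. At 225 min the upper limit lay below the lower limit at 0 min in both arms for 126 members (63.3%), against 17.1% of all genes tested. No member had limits apart in the rising direction in both arms. For the typical member the upper limit exceeded the FPKM by 32.5% to 37.1%, depending on the condition.

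Low level went with loss across the whole table, so the members were set beside genes of the same level. Of members between 2 and 5 FPKM, 87 of 91 fell (95.6%), against 54.5% of all genes tested at that level. Between 5 and 10 FPKM, 56 of 62 members fell (90.3%, against 51.2%), and between 10 and 20 FPKM 23 of 30 fell (76.7%, against 44.1%). At 20 FPKM or more, 5 of 16 members fell, 6 rose (37.5%) and 5 did not pass, while 16.7% of all genes at that level fell and 68.5% rose. The tested genes include the members, and no test was made of these shares.

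The fastest members kept 6.65% to 22.3% of their starting FPKM at 225 min in the control arm. Zfp296, which takes part in reprogramming to pluripotency, was at 8.43, 9.39, 1.73 and 0.952 FPKM with control siRNA and 9.52, 9.52, 1.31 and 1.43 FPKM with Upf3a siRNA. Its level was kept through 15 min and was low at both later times in both arms, and its slope was -0.65 ± 0.11 (SE). Zfp87 was at 4.99, 4.84, 0.693 and 0.332 FPKM with control siRNA and 5.18, 5.18, 0.515 and 0.436 FPKM with Upf3a siRNA (slope -0.62 ± 0.10). Zfp105 was at 4.72, 4.54, 0.799 and 0.543 FPKM and at 7.02, 6.02, 1.08 and 0.592 FPKM in the same order (slope -0.59 ± 0.09). In each of these genes every value at 105 and 225 min lay below every value at 0 and 15 min.

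Other fast losses belonged to more abundant mRNAs. Zfp217, a transcription factor of corepressor complexes that is amplified in cancers, was at 27.0, 26.1, 8.07 and 6.02 FPKM with control siRNA and 23.4, 20.9, 7.62 and 4.39 FPKM with Upf3a siRNA (slope -0.58 ± 0.06). Zfp830, a protein with 1 finger found with the splicing machinery, was at 12.5, 12.3, 4.67 and 2.08 FPKM and at 11.4, 10.7, 3.86 and 1.67 FPKM (slope -0.60 ± 0.04). Zfp828, now Champ1, which helps to attach chromosomes to the spindle, was at 27.4, 25.3, 14.5 and 5.82 FPKM and at 28.6, 26.8, 14.0 and 5.76 FPKM (slope -0.56 ± 0.01). The loss of Zfp828 was spread over the whole time course, while most of that of Zfp217 had taken place by 105 min. The other members of the fastest 10 were Zfp292 (-0.58), Zfp472 (-0.57), Zfp26 (-0.57) and Zfp866 (-0.56). Exons of Zfp296, Zfp26 and Zfp866 overlap genes on the other strand (for Zfp296, Gemin7), and strandedness of the libraries is not stated in the labels. Adjusted p of the 10 slopes lay between 3.2e-07 and 6.0e-04 by limma.

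Only 15 members rose relative to bulk mRNA, and by smaller amounts. Zfp771 was at 7.27, 13.05, 11.8 and 17.5 FPKM with control siRNA and 12.1, 13.9, 21.6 and 25.7 FPKM with Upf3a siRNA (slope 0.25 ± 0.05). Zfp106 was at 46.6, 45.9, 51.97 and 66.5 FPKM and at 54.0, 53.5, 67.8 and 79.0 FPKM (slope 0.15 ± 0.02). Zfp511 was at 27.4, 31.6, 36.0 and 46.2 FPKM and at 23.2, 23.6, 28.9 and 35.4 FPKM (slope 0.17 ± 0.02). In these genes the highest value of each arm was that at 225 min. The others of the top 10 were Zfp580 (0.21), Zfp692 (0.15), Zfp185 (0.14), Zfp523 (0.13), Zfp277 (0.12), Zfp512 (0.09) and Zfp444 (0.08), with adjusted p from 1.9e-05 to 0.021 by limma. Exons of Zfp511, Zfp106 and Zfp523 overlap genes on the other strand, and Zfp185 shares its locus in the table with another gene. Zfp523 is a close relative of the promoter-binding factor Zfp143, which fell. Scaled to ribosomal protein genes, no member rose, 197 fell, and the slopes of these 10 were all negative, from -0.19 for Zfp512 to -0.03 for Zfp771. Zfp444 no longer passed without 0 min (slope 0.04).

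The arms' slopes ran in parallel. Of the 199 members, 175 had a negative slope in both arms, 16 a positive one in both and 8 had opposite signs. Across the members, Spearman's rank correlation between the arms' slopes was 0.97 (n = 199 genes, which are not independent replicates). The median slope was -0.29 in the control arm and -0.32 in the knockdown arm.

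**Figure D3:**
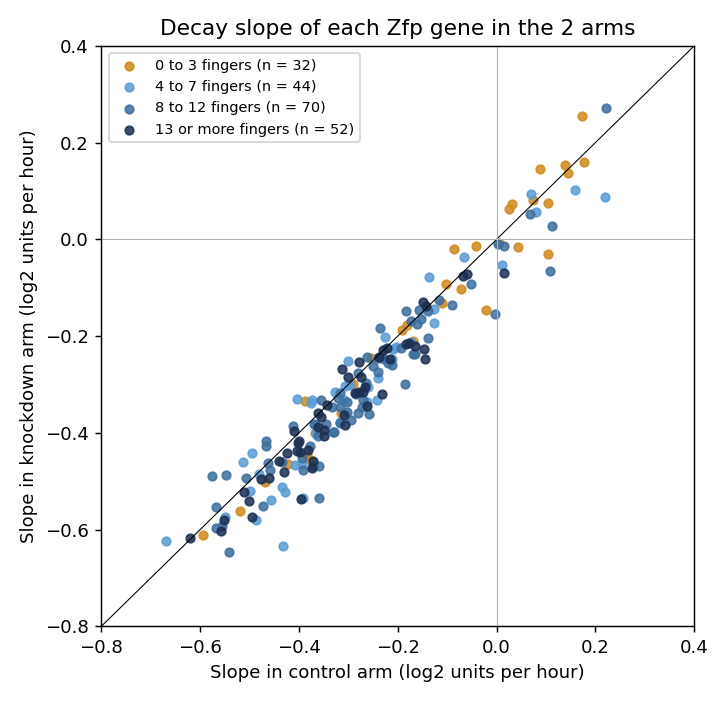
Decay slope in the control arm (x) against that in the knockdown arm (y), in log2(FPKM + 1) units per hour, for the 198 Zfp genes with a coding transcript, coloured by number of C2H2 fingers; the black line marks equal slopes. Points follow the line, most of them just below it, and 8 of the 15 genes that rose have 0 to 3 fingers.

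Slope varied with the number of fingers. Members with 0 to 3 fingers had a median slope of -0.09 (n = 32), with 17 that fell, 8 that rose and 7 that did not pass. Medians were -0.31 with 4 to 7 fingers (39 of 44 fell), -0.31 with 8 to 12 (63 of 70) and -0.34 with 13 or more (51 of 52, none rose). Level moved with finger number, from a median of 11.7 FPKM in the first class to 3.77 FPKM in the last. Among members with 0 to 3 fingers, the median slope was -0.25 below 10 FPKM (12 of 15 fell) and -0.0011 at or above it (5 of 17 fell), so the slopes near 0 lay mainly with the abundant members of that class. Among members with 13 or more fingers it was -0.34 (46 of 47 fell) and -0.42 (5 of 5). These classes were not tested against each other. Spearman's rank correlation across members was -0.24 between slope and finger number (n = 198) and 0.25 between slope and mean FPKM (n = 199), which was 0.43 over all genes tested. Mean FPKM includes the late times, so it holds part of the loss that it is set against.

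Members with a KRAB domain were nearly all lost. By sequence pattern 64 members had a KRAB A-box, the part that binds TRIM28, and 62 of them fell, none rose and 2 did not pass, with a median slope of -0.36. Of 134 members without the pattern, 108 fell, 15 rose and 11 did not pass, with a median of -0.29. The pattern misses some KRAB genes, and a looser pattern chosen after seeing the data marked 78, of which 75 fell and 1 rose. KRAB members had lower mean levels over all 8 conditions, late times included, with a median of 3.65 FPKM against 6.17 FPKM. Between 2 and 5 FPKM, all 45 KRAB members and 41 of 45 others fell. Members within 200 kb of another Zfp gene had a median slope of -0.33 and those farther away -0.29.

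AU-rich elements in the 3′ UTR can speed mRNA decay, and the letters ATTTA and TTATTTATT were searched on the transcript strand of each gene's 3′ UTR in GENCODE vM21. The nonamer contains ATTTA, so the searches overlap. ATTTA occurred in 147 of 198 members (74.2%) and in 65.4% of all genes tested. It occurred in 78.2% of members that fell and 77.9% of all genes that fell. Of members that rose 7 of 15 had it (46.7%), against 53.8% of all genes that rose. The nonamer occurred in 14 members (7.07%), all of which fell, against 7.11% of all genes tested. Its share was 8.24% of members that fell, below the 10.7% of all genes that fell, and 3.89% of all genes that rose. The median slope was -0.24 for 51 members without ATTTA, -0.28 for 67 with 1 or 2, -0.34 for 42 with 3 to 5 and -0.35 for 38 with 6 or more. Longer 3′ UTRs hold more matches. The following windows show the nonamer in capitals in Zfp292, one of the fastest members, and in 3 other members chosen after their values were seen.
Zfp292 (chr4:34803155-34803179, minus strand): gcccactgTTATTTATTaatgttaa
Zfp799 (chr17:32818360-32818384, minus strand): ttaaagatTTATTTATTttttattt
Zfp329 (chr7:12805785-12805809, minus strand): ttttagatTTATTTATTattaaaca
Zfp747 (chr7:127372984-127373008, minus strand): aaataaaaTTATTTATTtctaaata
A match describes these letters only and is no measured site. The fastest member, Zfp296, had no ATTTA, while Zfp292 had 8 and Zfp26 had 16.

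Among members with a role in pluripotency and the early embryo, 6 of 7 fell (85.7%) and the median slope was -0.48. Beside this list and those below, 85.9% of all members fell and 7.54% rose, against 38.6% and 42.7% of all genes tested. The role lists here were drawn up with earlier results of these data known. Zfp281, which binds the regulatory regions of pluripotency genes, was at 18.7, 18.5, 7.80 and 5.24 FPKM with control siRNA and 23.7, 19.98, 8.96 and 5.72 FPKM with Upf3a siRNA (slope -0.48 ± 0.04). Zfp143, which occupies promoters at the anchors of chromatin loops, was at 20.8, 20.3, 14.1 and 5.27 FPKM and at 17.0, 16.3, 9.71 and 4.17 FPKM (slope -0.48 ± 0.03). Zfp462, a protein of 33 fingers, had a slope of -0.45. Both values at 225 min lay below all earlier values in Zfp281 and Zfp143. Zfp706 was the exception, at 31.3, 27.1, 29.7 and 23.0 FPKM and at 32.0, 34.2, 35.3 and 30.9 FPKM, and its slope of -0.05 did not pass. Zfp13, with a slope of -0.11, did not pass without 225 min and had a slope of 0.0037 after quantile normalization.

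Of 5 members that silence imprinted loci or retroelements, 4 fell, with a median slope of -0.21. Zfp57, the KRAB protein that keeps DNA methylation at imprinted loci, was the one that did not pass, at 8.72, 9.06, 10.8 and 11.7 FPKM with control siRNA and 14.7, 15.4, 17.0 and 13.5 FPKM with Upf3a siRNA (slope 0.04 ± 0.03). Without 225 min its slope was 0.13 and passed, as it did after quantile normalization (0.10), and scaled to ribosomal protein genes it was -0.23. Zfp445, a second imprint regulator, was at 12.6, 11.5, 7.29 and 5.203 FPKM and at 18.3, 16.0, 11.1 and 6.83 FPKM (slope -0.32 ± 0.02). Zfp568, which represses a placental promoter of Igf2, had a slope of -0.17, and the retroelement silencers Zfp809 and Zfp932 had -0.21 and -0.24.

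Of 7 members that act on RNA or the ribosome, 2 fell, 2 rose and 3 did not pass, with a median slope of 0.01. Zfp598 was at 41.2, 42.2, 46.9 and 41.6 FPKM with control siRNA and 38.3, 40.8, 44.4 and 38.0 FPKM with Upf3a siRNA (slope -0.0011 ± 0.023). Zfp622, which acts in maturation of the large ribosomal subunit, fell with a slope of -0.36, as did Zfp830 above. Zfp346, which binds double-stranded RNA, rose with a slope of 0.07, as did Zfp106. Zfp326 and Zfp593 had slopes of 0.01 and 0.04. Without 225 min the slopes of Zfp598 and Zfp593 were 0.10 and -0.11. The 7 had 1 to 4 fingers each.

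Of 4 members in mitosis, ubiquitin or SUMO pathways, 3 fell (median slope -0.19). Zfp91, a ubiquitin ligase, had a slope of -0.28, Zfp451, a SUMO ligase, -0.31 and Zfp330 -0.10, while Zfp207 had -0.03 and did not pass, though it did after quantile normalization (-0.18). Of 12 general transcription regulators 11 fell and 1 rose (median -0.26). The one that rose was Zfp219 at 0.07, whose exons overlap genes on the other strand and which did not pass without 0 or 225 min or after quantile normalization. Zfp131 fell fastest of them at -0.51, and Zfp161, now Zbtb14, had -0.47. Zfp384 at -0.07 did not pass without 0 min or without 15 min and had 0.06 without 225 min. All 4 differentiation factors fell (median -0.26): Zfp703 at -0.44, Zfp521 at -0.29, Zfp238 (now Zbtb18) at -0.24 and Zfp423, a regulator of fat cell precursors, at -0.23.

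Other zinc finger families of the same level limit were also lost. Of 25 Zbtb genes, which pair fingers with a BTB domain, 23 fell and 1 rose (median slope -0.33). Of 16 Klf and Sp genes, which have few fingers and bind GC-rich boxes, all fell (median -0.48), and of 7 Zscan and Zkscan genes 6 fell (median -0.28). Among all genes tested 38.6% fell and 42.7% rose, and no family was tested against these shares. Of 19 cofactors of KRAB proteins in the silencing machinery, 10 fell (52.6%) and 8 rose (42.1%), with a median of -0.06. Their rising share was near that of all genes, but their median level was 66.8 FPKM. Of all genes tested at 20 FPKM or more, 68.5% rose and 16.7% fell. Not every cofactor reached that level (Atf7ip had a mean of 10.7 FPKM). Trim28, the KRAB corepressor, had a mean of 302 FPKM (SD 56.4, n = 4 time points) with control siRNA and 376 FPKM (SD 76.4) with Upf3a siRNA, and its slope was 0.16 ± 0.02 (SE).

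**Figure D4:**
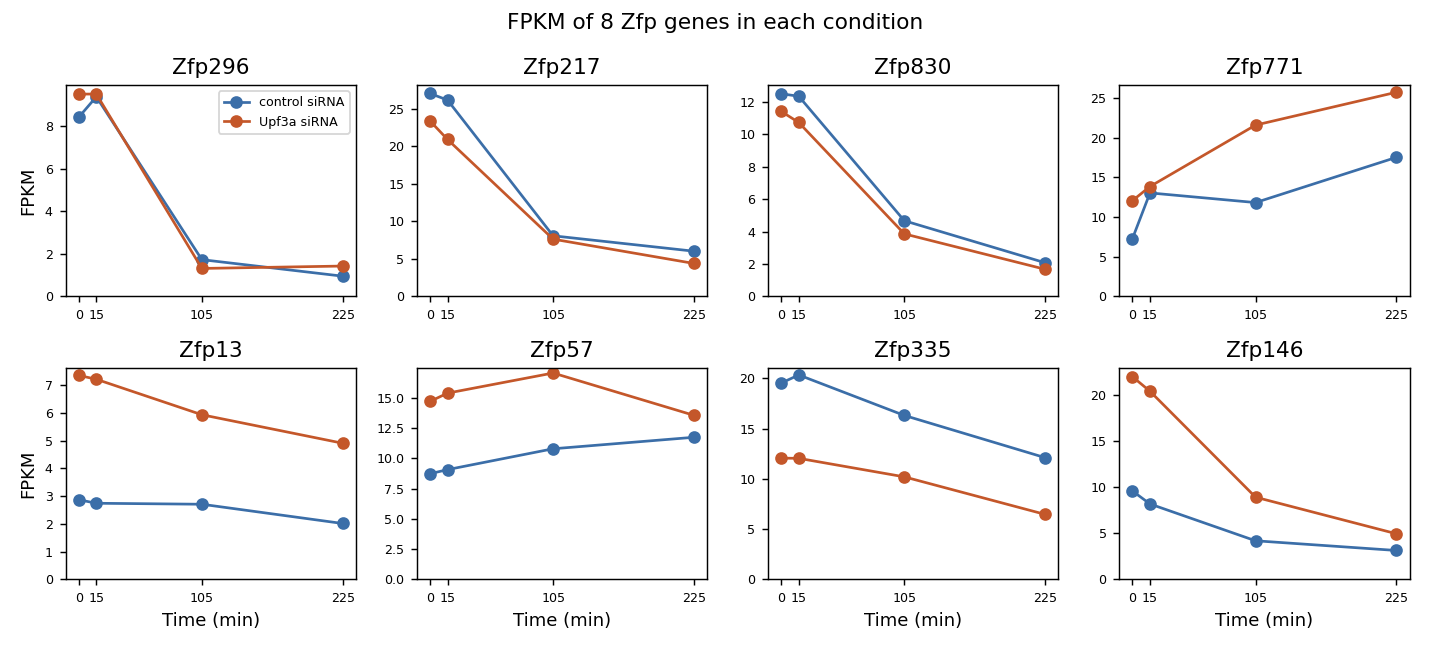
FPKM (y, from 0) against time after actinomycin D in min (x) for 8 Zfp genes, 1 deposited value per condition, in the control arm (blue) and the Upf3a siRNA arm (orange). Zfp296, Zfp217 and Zfp830 are low by 225 min in both arms, and Zfp771 is highest at 225 min. At each of the 4 times the knockdown value is above the control value for Zfp13 and below it for Zfp335.

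The arm comparison asked whether Zfp mRNAs differed in level after Upf3a knockdown, with time held as a factor. The share of members that differed was near the share over all genes, in both directions, and most differences were small. limma with Benjamini-Hochberg adjustment called 55 members higher (27.6%) and 46 lower (23.1%), and 98 did not pass. The same rule called 26.1% of all tested genes higher and 22.3% lower. The members' median difference was -0.0026 log2(FPKM + 1) units and the median size of a called difference was 0.26. The sign was the same at all 4 times in 60.3% of members, 64 higher and 56 lower, against 60.4% of all genes. Scaled to ribosomal protein genes, the split was 61 higher and 20 lower, with the median of the members at 0.08 and that of all genes at 0.08. Folds on this scale understate the change of low genes. The embryonal carcinoma and neural markers and Col1a2, described above, also differed between the arms, and their part in the Zfp differences was not tested.

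The largest increases came in both low and moderately abundant mRNAs. Zfp35 was at 3.19, 2.40, 1.92 and 1.66 FPKM with control siRNA and 6.89, 6.93, 4.37 and 4.89 FPKM with Upf3a siRNA. Every knockdown value was above every control value, and the arm difference was 1.04 ± 0.07 (SE). Zfp13 (chromosome 17, 23575844 to 23599487, minus strand, GRCm38) was at 2.87, 2.74, 2.71 and 2.02 FPKM and at 7.35, 7.21, 5.93 and 4.91 FPKM, again with no overlap, and differed by 1.03 ± 0.05. On the log2(FPKM + 1) scale these 2 members differed by 1 log2 unit or more. With a pseudocount of 0.1, Zfp637, Zfp146 and Zfp846 did so too, with a pseudocount of 5 no member did, and without 15 min Zfp637 alone did. By the authors' limits, the arms of Zfp35 were apart at all 4 times and those of Zfp13 and Zfp146 at 3 times; 6 members were apart at 1 time or more, the others being Zfp846, Zfp213 and Zfp637.

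Zfp637 and Zfp146 differed by nearly as much. Zfp637 (chromosome 6, 117841180 to 117845956, plus strand) was at 5.05, 4.999, 3.40 and 1.14 FPKM with control siRNA and 10.4, 9.51, 7.63 and 3.68 FPKM with Upf3a siRNA (0.96 ± 0.06). Zfp146 (chromosome 7, 30161269 to 30169750, minus strand), a protein made almost wholly of fingers, was at 9.61, 8.20, 4.199 and 3.15 FPKM and at 22.02, 20.4, 8.93 and 4.96 FPKM (0.95 ± 0.11). At each time the knockdown value was the higher in both genes, although the arms' ranges overlapped because both mRNAs fell. The others of the top 10 were Zfp580 (0.73), Zfp187, now Zscan26 (0.64), Zfp1 (0.60), Zfp213 (0.59), Zfp41 (0.56) and Zfp862 (0.56). Adjusted p of the 10 lay between 4.7e-05 and 0.0094 by limma. Exons of Zfp187, Zfp213 and Zfp862 overlap genes on the other strand, Zfp187 shares its locus with another gene, and Zfp862 has no coding transcript in GENCODE vM21.

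The largest decreases were smaller in size. Zfp335 (chromosome 2, 164891882 to 164911757, minus strand), a regulator needed for neural progenitors and T cell maturation, was at 19.5, 20.4, 16.3 and 12.1 FPKM with control siRNA and 12.1, 12.1, 10.2 and 6.47 FPKM with Upf3a siRNA (-0.70 ± 0.05). Zfp846 was at 4.16, 4.74, 3.47 and 2.77 FPKM and at 2.63, 2.76, 1.36 and 1.02 FPKM (-0.73 ± 0.08). Zfp446 was at 4.82, 5.46, 4.50 and 3.61 FPKM and at 2.86, 2.98, 2.70 and 1.77 FPKM (-0.65 ± 0.05). In Zfp846 and Zfp446 no knockdown value reached the lowest control value. The others of this 10 were Zfp597 (-0.58), Zfp488, a factor of oligodendrocytes (-0.55), Zfp341 (-0.49), Zfp407 (-0.48), Zfp941 (-0.39), Zfp292 (-0.35) and Zfp143 (-0.34), with adjusted p between 8.4e-05 and 0.0073 by limma. Zfp292 no longer passed when scaled to ribosomal protein genes (-0.26). Exons of Zfp335, Zfp597, Zfp341, Zfp407 and Zfp143 overlap genes on the other strand, those of Zfp335 with Pcif1. Of the 141 members with no such overlap, 40 were higher and 29 lower, a count chosen after seeing the data.

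**Figure D5:**
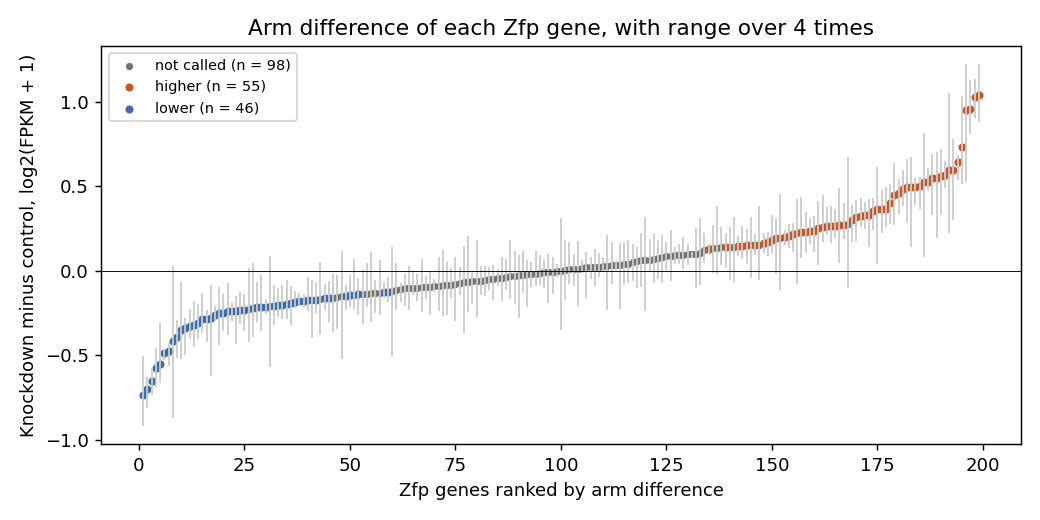
Arm difference, knockdown minus control in log2(FPKM + 1) units, of the 199 Zfp genes in rank order. Points are limma estimates coloured by call (55 higher, 46 lower, 98 not called), and grey lines span the lowest and highest of the 4 time points; estimates run from -0.73 to 1.04.

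By role, the calls went both ways. The lists are small, and over all genes tested 26.1% were higher and 22.3% lower. No list in this or the next paragraph was tested against these shares. Of the 7 pluripotency and early embryo members, 3 were higher (Zfp13, Zfp706 at 0.25 and Zfp281 at 0.18) and 2 lower (Zfp143 and Zfp217 at -0.24). Zfp706 did not pass without any 1 of the 15, 105 and 225 min times, Zfp281 without 0 or 105 min, and Zfp217 without 15 min or when scaled to ribosomal protein genes. Of the 5 imprint and retroelement silencers, 2 were higher and none lower. These were Zfp57 at 0.55 ± 0.09, above control at each of the 4 times, and Zfp445 at 0.46 ± 0.05, also above control at each time. Zfp568, Zfp809 and Zfp932 had differences of 0.10, 0.06 and -0.10 and did not pass.

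Of the 7 RNA and ribosome members, 3 were higher (Zfp622 at 0.36, Zfp593 at 0.32 and Zfp106 at 0.26) and 2 lower (Zfp346 at -0.20 and Zfp830 at -0.18). The 2 decreases did not pass when scaled to ribosomal protein genes, nor did Zfp346 without 15 min. Zfp451 at 0.33 was the 1 call among the 4 mitosis, ubiquitin and SUMO members. Among the 12 general transcription regulators, 3 were higher (Zfp148 at 0.45, Zfp532 at 0.26 and Zfp687 at 0.15) and 4 lower (Zfp335, Zfp516 at -0.26, Zfp161 at -0.23 and Zfp410 at -0.22). Zfp687 did not pass when any 1 of the 15, 105 and 225 min times was left out, nor after quantile normalization, and Zfp410 when scaled to ribosomal protein genes. Of the differentiation factors Zfp703 (0.23) and Zfp423 (0.22) were higher, and Zfp521 (-0.21) and Zfp238 (-0.17) lower. Of these, Zfp423 kept its call under every alternative run.

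Among members with a KRAB pattern 9 were higher and 16 lower, with a median of -0.08. Among those without it 45 were higher and 30 lower, with a median of 0.03. The counts with the pattern were 6 and 20 under median-of-ratios scaling and 10 and 6 scaled to ribosomal protein genes; without it they were 43 and 35, and 50 and 14. The ribosomal scaling moved all genes the same way, to 34.3% higher and 11.4% lower. At a mean of 5 FPKM or more only 19 KRAB members remained, 5 higher and 1 lower. By the looser pattern, 15 of 78 members were higher and 19 lower, with a median of -0.06. Of the 120 without the looser pattern, 39 were higher and 27 lower, so the lean to lower calls varied with the pattern. The difference between the classes was not tested. Of the KRAB cofactors, 8 of 19 were higher and 2 lower, among them Cbx3, a heterochromatin protein, at 0.46, Chd4 at 0.35, Trim28 at 0.31, Suv39h1 at 0.28 and Hdac2 at -0.19. Of the Zscan and Zkscan genes 6 of 7 were higher, and of the Klf and Sp genes 9 of 16 were lower and 2 higher. Over all genes tested 26.1% were higher and 22.3% lower, and these sets were not tested against those shares.

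The rate comparison asked whether Zfp mRNAs were lost faster or slower in the knockdown arm, as the difference of slopes (knockdown minus control). No member passed by limma with Benjamini-Hochberg adjustment, and over all genes tested 0.00873% passed, which is 1 gene. At an unadjusted p below 0.05 there were 27 members (13.6%, against 6.65% of all genes), and limma with trend and robust also called 0. The fit has 2 residual degrees of freedom, which limits how small a difference in 1 gene could be called.

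The estimates of most members lay on the side of faster loss after knockdown. The knockdown slope was the more negative in 148 of 199 members (74.4%), with a median difference of -0.03 log2 units per hour, against 46.7% of all genes and a median of 0.0033. Genes that fell leaned the same way in general: 66.5% of the 4423 tested genes that fell had the more negative slope in the knockdown arm (median -0.02), against 130 of the 171 members that fell (76.0%, median -0.03). The share also varied with level. It was 75.8% of members against 59.2% of all genes tested between 2 and 5 FPKM, and 75.8% against 58.7% between 5 and 10 FPKM. Between 10 and 20 FPKM it was 80% against 50.6%, and at 20 FPKM or more 50% against 28.3%. Members share 1 set of 8 conditions, so these counts are no independent trials. After quantile normalization 126 members (63.3%) had the more negative knockdown slope, against 50.3% of all genes, and the median was -0.01. Without 0 min there were 127 (63.8%, against 51.5%), and scaled to ribosomal protein genes 179 (89.9%, against 76.6%). The median log2 ratio of the arms was 0.07, 0.04, -0.02 and -0.06 at 0, 15, 105 and 225 min for the members, and -0.01, 0.02, 0.01 and 0.01 for all genes tested.

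By moderated t, the most negative differences were those of Zfp146 (-0.17 ± 0.03 SE), Zfp212 (-0.14 ± 0.03), Zfp317 (-0.14 ± 0.03), Zfp57 (-0.13 ± 0.03) and Zfp213 (-0.20 ± 0.05). Zfp317 was at 15.2, 15.3, 8.97 and 5.03 FPKM with control siRNA and 23.8, 21.7, 11.5 and 5.19 FPKM with Upf3a siRNA. Its knockdown value was the higher at 0 min, and the arms were near each other at 225 min. Zfp212 had the same course, from 4.45 and 7.68 FPKM at 0 min to 1.02 and 1.23 FPKM at 225 min. The most positive were Zfp637 (0.07 ± 0.03), Zfp277 (0.06 ± 0.03), Zfp639 (0.05 ± 0.03), Zfp248 (0.05 ± 0.03) and Zfp161 (0.05 ± 0.03). The estimate for Zfp637 was -0.02 with a pseudocount of 5 and -0.01 scaled to ribosomal protein genes. None of the 10 passed, with adjusted p from 0.55 to 0.77 by limma. Zfp146, Zfp212, Zfp317, Zfp57 and Zfp213 were all called higher in the arm comparison.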

How the data were processed

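RNA-seq of P19 cells was aligned with TopHat2 and quantified with Cufflinks on mm10, per the submitters' processing notes. Versions are absent from the notes, and for the gene annotation the sources used here name none. The deposited table holds 1 FPKM value, with a lower and an upper limit in FPKM and a status, per gene and condition, per the file headers. The labels list 2 cultures per condition, which the authors combined in a way that is not stated. No counts are given, so depth is unknown.

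Analysis used R 4.3.3, limma 3.58.1 and Python 3.11.15. The 11452 genes whose mean reached 1 FPKM entered as log2(FPKM + 1). limma (eBayes without trend) was fitted over all of them, with Benjamini-Hochberg adjustment and a threshold of 0.05: arm with time as a factor (3 residual degrees of freedom), slope over hours with arm (5), and arm by hours with time as a factor (2). The fits were tested on simulated data. The members, lists and tests were chosen with earlier results of these data known. No set test was run.

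Named members are up to 10 largest called differences each way whose sign held at every time (arm) or agreed between arms (slope), 5 each way by moderated t for the rate difference, all role list members, and members at the extremes of level and at the level limit. Genes were matched to GENCODE vM21 by symbol (190) or synonym (9), and the longest coding transcript was used. Fingers were counted as 2 cysteines and 2 histidines at the usual C2H2 spacing, without overlap. A locus shared with another gene, between which reads may be split, holds 16 members, and 58 have exons that overlap a gene on the other strand. Alternatives were other pseudocounts, level limits, scalings, limma settings, patterns and time points left out.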

Additional observations from a re-analysis of the deposited data

How the results depend on the processing

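Each condition has 1 value, and slopes are relative to bulk mRNA. No paired analysis was possible because the deposited table holds 1 value per condition and so no numbered replicates to pair; the arm fit does compare the arms within each time. The cause of the shifts below was not tested except where the alternative itself sets it. The median slope was -0.38 with a pseudocount of 0.1, -0.16 with a pseudocount of 5, -0.19 after quantile normalization and -0.51 scaled to ribosomal protein genes; the last also moved the median of all genes to -0.23, the median arm difference of the members to 0.076, the lower calls to 20 and the rising members to 0. With a limit of 5 FPKM, 108 members entered, with 31 higher, 23 lower and 84 falling. Without the 58 members with exon overlap on the other strand, an alternative chosen after seeing the data that also shrinks the set to 141, 40 were higher (28.4%) and 29 lower (20.6%). Leaving out each time point in turn gave 43 to 60 higher, 31 to 41 lower, 11 to 16 rising and 165 to 172 falling, a median slope from -0.42 to -0.29, a median arm difference from -0.03 to 0.01, and a median rate difference from -0.04 to -0.02 with 0 called. The slope median of -0.42 is that without 225 min.

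Some named slopes changed sign. After quantile normalization Zfp13 was at 0.0037 and Zfp446 at 0.0024. Scaled to ribosomal protein genes, the slopes were -0.14 for Zfp106, -0.087 for Zfp185, -0.21 for Zfp219, -0.16 for Zfp277, -0.25 for Zfp326, -0.20 for Zfp346, -0.17 for Zfp444, -0.11 for Zfp511, -0.19 for Zfp512, -0.13 for Zfp523, -0.23 for Zfp57, -0.028 for Zfp580, -0.21 for Zfp593, -0.12 for Zfp692 and -0.027 for Zfp771. With each time point left out in turn, slopes ran from -0.087 to 0.063 for Zfp384, from -0.11 to 0.060 for Zfp593 and from -0.022 to 0.10 for Zfp598, with the change of sign at 225 min left out. For 162 estimates of named members, 1891 values were computed under the alternatives: 51 lost a call, 33 gained one and 20 changed sign with a call in at least 1 of the fits. Of the other 1787, 28 values of 14 estimates changed sign with no call in either, such as the arm difference of Zfp131 and the rate difference of Zfp637.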
